A study of Mus musculus with 6 samples.

Results

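Genes for plasma carriers and inhibitors of the acute phase were followed in mouse liver tumours, 10 in all. They were the 3 orosomucoids Orm1, Orm2 and Orm3, haptoglobin (Hp), hemopexin (Hpx), lipocalin 2 (Lcn2), ceruloplasmin (Cp), lipopolysaccharide-binding protein (Lbp) and the inter-alpha inhibitor heavy chains Itih3 and Itih4. They were chosen by symbol, and all 10 were found once each among the 43346 genes of the deposited table. All 10 also passed the filter on low counts, which left 18359 genes for testing.

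RNA was sequenced from tumours induced with DEN (diethylnitrosamine, a liver carcinogen) in mice overexpressing SULF2, an extracellular sulfatase, in a line labelled Sulf2-TTR. The labels give that overexpression for both groups. They differed in Gli1, a transcription factor of the Hedgehog pathway, which was wild-type (WT) in 3 libraries and knocked out (KO) in 3. Age, dose, the deleted part of Gli1 and the cells lacking it are not given in the sources used here, nor is it stated that each tumour came from its own animal, so p-values cover no more than the spread from sample to sample.

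The acute phase is the shift in plasma protein production that the liver makes during inflammation or injury. Interleukin 6 acting through STAT3, interleukin 1 acting through NF-kB and C/EBP factors, and glucocorticoids drive these genes in hepatocytes. The proteins leave the cell and bind what tissue damage and infection release: haemoglobin, free haem, iron chelators, bacterial lipopolysaccharide and hyaluronan.

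Library totals ran from 75205624 to 132979502 counted reads. The targeted gene, Gli1, had 10, 20 and 7 reads in WT replicates 1, 2 and 3 and 4, 3 and 3 in KO replicates 1, 2 and 3. Hepatocyte markers were present throughout: all 15 were detected, and their summed level, in CPM (read counts relative to the library size, here scaled by TMM, the trimmed mean of M values), ran from 192400 to 258000 in WT and from 199000 to 217200 in KO. Most of that sum was albumin (Alb), at 114600 to 167500 CPM over the 6 libraries. Hepatocyte scaling, used below, divides by the counts of these markers and so rests largely on albumin. Albumin is itself among the plasma proteins known to decline in the acute phase, so this scale is not independent of that response. On the first principal component of all tested genes (42.7% of variance), WT replicate 3 (80.9) and KO replicate 1 (65.2) stood apart from the other libraries (-67.9 to -7). Mouse Sulf2 was counted at 76.4, 11.6 and 5.33 CPM over WT replicates 1, 2 and 3 and at 164.5, 2.63 and 10.2 over KO replicates 1, 2 and 3, a 62.5-fold range. No source used here says whether transcripts of a transgene would be counted under that gene, so the overexpression is stated from the labels alone. A bulk sample cannot tell fewer cells of a type from less RNA per cell.

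Promoter sequence is shown because the members share inputs that act near the start of transcription. RefSeq promoters on GRCm38.p6 were matched for 7 of the 10 members, and the 250 bases before the start were searched on both strands. The letters searched were TTCNNNGAA for STAT factors, TTGCNNAA for C/EBP factors, a consensus for NF-kB, and ACANNNTGT for the glucocorticoid receptor. Windows of 5 members held TTGCNNAA, which 9.56% of 32851 promoter windows of that length held. TTCNNNGAA was in 1 member (7.02% of all windows), ACANNNTGT in 2 (5.84%) and the NF-kB consensus in 0 (0.356%). A match of letters is not a binding site, and its absence concerns only this window.

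The 4 members with the most reads among those holding either of the first 2 motifs are given 5′ to 3′, with the match in capitals, TTCNNNGAA in Itih4 and TTGCNNAA in the others (in Cp on the opposite strand, and before the later of its RefSeq starts).
Hpx, chr7:105600117-105600366, minus strand: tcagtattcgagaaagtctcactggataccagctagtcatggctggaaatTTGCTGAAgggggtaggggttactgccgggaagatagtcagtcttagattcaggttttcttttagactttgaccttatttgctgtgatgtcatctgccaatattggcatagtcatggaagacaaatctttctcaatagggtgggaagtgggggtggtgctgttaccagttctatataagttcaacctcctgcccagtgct
Cp, chr3:19956999-19957248, plus strand: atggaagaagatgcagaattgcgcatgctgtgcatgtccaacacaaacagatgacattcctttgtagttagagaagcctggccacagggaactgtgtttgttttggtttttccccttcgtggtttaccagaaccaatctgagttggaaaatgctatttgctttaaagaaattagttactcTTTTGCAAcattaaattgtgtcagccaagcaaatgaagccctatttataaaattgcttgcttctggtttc
Itih4, chr14:30886226-30886475, plus strand: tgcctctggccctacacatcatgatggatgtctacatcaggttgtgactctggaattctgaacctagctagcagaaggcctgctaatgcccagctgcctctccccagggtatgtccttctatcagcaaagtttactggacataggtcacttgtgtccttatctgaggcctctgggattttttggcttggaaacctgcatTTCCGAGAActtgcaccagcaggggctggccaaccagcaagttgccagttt
Lcn2, chr2:32387740-32387989, minus strand: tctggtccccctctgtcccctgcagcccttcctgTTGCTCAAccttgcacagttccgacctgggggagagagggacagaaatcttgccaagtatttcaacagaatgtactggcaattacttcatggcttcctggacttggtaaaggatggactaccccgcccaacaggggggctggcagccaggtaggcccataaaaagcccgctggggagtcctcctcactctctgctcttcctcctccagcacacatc

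Orm2 and Orm3 were added after their values were seen, because these neighbouring paralogs varied most between tumours. Their windows aligned with 85.5% identity, and each held TTGCNNAA at almost the same distance from the start, as TTGCGCAA in Orm2 and TTGCACAA in Orm3.
Orm2, chr4:63362199-63362448, plus strand: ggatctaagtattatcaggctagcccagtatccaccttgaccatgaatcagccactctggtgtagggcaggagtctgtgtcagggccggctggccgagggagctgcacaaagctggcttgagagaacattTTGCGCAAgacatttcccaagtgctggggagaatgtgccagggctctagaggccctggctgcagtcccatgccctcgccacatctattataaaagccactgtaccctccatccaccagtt
Orm3, chr4:63355908-63356157, plus strand: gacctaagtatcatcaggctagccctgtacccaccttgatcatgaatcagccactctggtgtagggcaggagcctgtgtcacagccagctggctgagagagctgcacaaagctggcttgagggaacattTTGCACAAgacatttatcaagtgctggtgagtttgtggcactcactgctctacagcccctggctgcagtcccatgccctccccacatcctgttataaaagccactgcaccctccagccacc

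None of the 10 genes passed the test between genotypes once adjusted over all genes. In edgeR's quasi-likelihood test, adjusted by Benjamini-Hochberg over 18359 genes, 0 members passed a false discovery rate (FDR) of 0.05, against a background of 0% of all genes, and each had an FDR of 0.9997. DESeq2 also called 0 members, against 0.228% of the 28057 genes it tested, a larger set. At an unadjusted p under 0.05, edgeR had 1 member, Lbp, lower in KO, against a background of 3.62% of its 18359 genes (2.02% lower and 1.6% higher in KO). DESeq2 had 2 (Lbp and Orm1) against 3.88% of its 28057. Log2 fold changes, KO minus WT, were below 0 for 9 of 10 members, against 51.8% of all genes, with a median of -0.57 against -0.01 for all genes tested. The members share regulators and tumours, so their signs are not separate observations. The median was -0.96 without KO replicate 1.

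**Figure D1:**
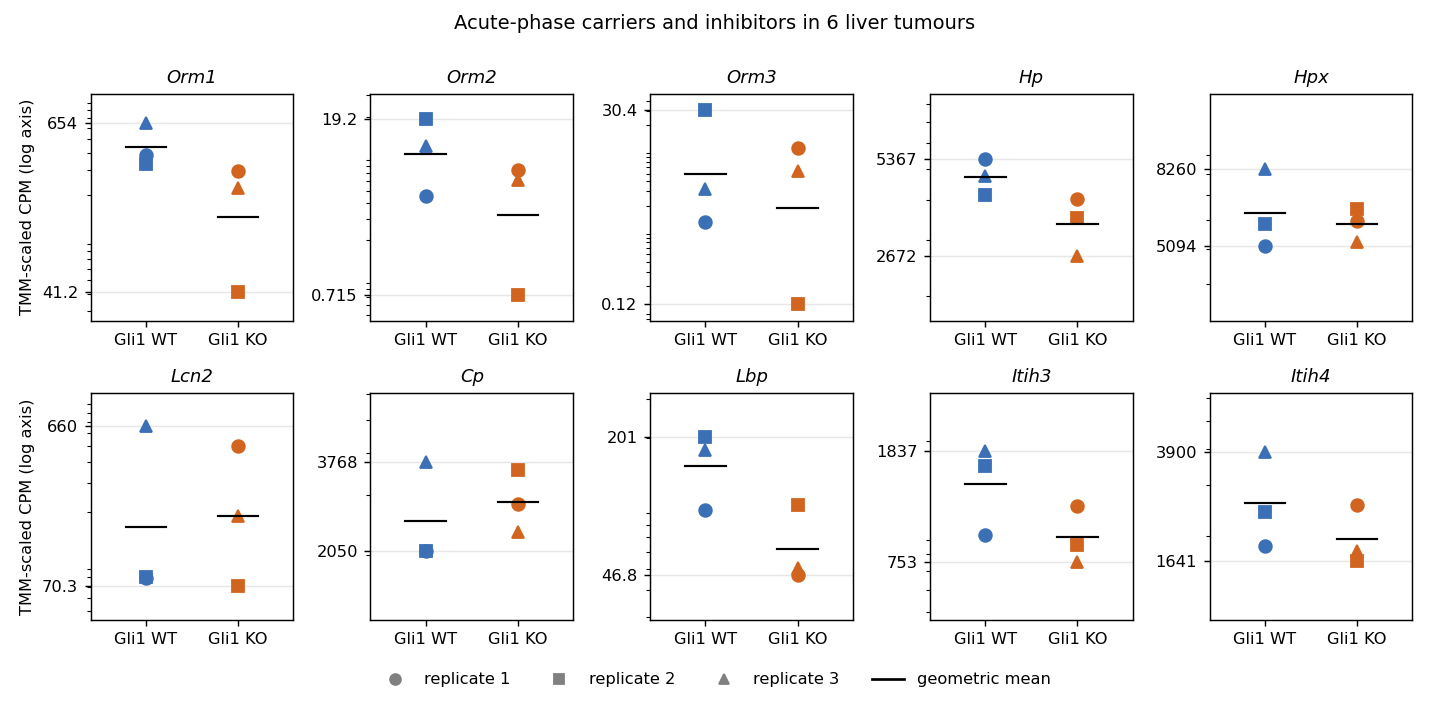
TMM-scaled CPM (log axis, a separate scale per gene, lowest and highest values marked) of the 10 genes in 3 Gli1 WT and 3 Gli1 KO tumours, with the geometric mean of each group as a bar. On this scale genotypes are apart for Orm1 and Hp, which overlap in deposited RPKM, and they overlap for the other 8 genes.

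Levels per length were far apart. In deposited RPKM (reads scaled to gene length and to library size) averaged over 6 libraries, Hpx (3618) and Hp (2616) led, followed by Itih4 (619), Orm1 (356), Itih3 (286), Cp (253), Lcn2 (89.0), Lbp (19.6), Orm3 (9.63) and Orm2 (9.24). Among neighbours in that order, only Hp and Itih4 had ranges that did not overlap. Hpx exceeded Hp in 5 of 6 libraries, with WT replicate 1 the exception. The lengths used for Lcn2 (2623 bases), Cp (9566 bases) and Lbp (4831 bases) join all annotated exons. This lowers the RPKM of a gene that mainly uses a shorter transcript.

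The orosomucoids are lipocalins that carry basic and lipophilic compounds in plasma and temper leukocyte responses. Their 3 genes lie within chromosome 4, 63344560 to 63365878 (GRCm38, plus strand), in the order Orm1, Orm3, Orm2. Orm1 reached 387, 335 and 654 CPM in WT replicates 1, 2 and 3, and 296, 41.2 and 225 in KO replicates 1, 2 and 3, the order used throughout. Every KO tumour was below every WT tumour on this scale, and KO replicate 2 lay far below all others. On the log2 scale the difference was -1.29 ± 0.68 (SE of edgeR, 3 libraries a group, as in all later values; 95% interval -2.92 to 0.34), with an unadjusted edgeR p of 0.102 and FDR 0.9997. Leaving out KO replicate 2 gave -0.81, and a covariate for the number that opens the sample description gave -2.08 ± 0.89. In deposited RPKM the separation was lost, since KO replicate 1 had 371 and WT replicate 2 had 365. It remained per hepatocyte marker count and, narrowly, on plain library totals (highest KO 324.9 CPM, lowest WT 336.9).

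Orm2 was counted far less often, at 4.55, 19.2 and 11.6 CPM in WT tumours and 7.42, 0.715 and 6.19 in KO tumours. Genotypes overlapped because WT replicate 1 was below KO replicates 1 and 3. Its difference of -1.30 ± 0.86 (log2) did not pass (edgeR FDR 0.9997) and shrank to -0.76 when WT replicate 2 was left out and to -0.78 when KO replicate 2 was. Orm3 stood at 1.24, 30.4 and 3.21 CPM in WT tumours and at 10.4, 0.120 and 5.38 in KO tumours, a 252-fold range over the 6 tumours. Its highest tumour was WT replicate 2 and its lowest KO replicate 2. Its log2 difference of -1.13 ± 1.54 (95% interval -4.81 to 2.55) became 1.25 without WT replicate 2 and -0.55 without KO replicate 2. The covariate for description numbers moved it to -2.03 ± 5.57.

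The mix of the 3 paralogs was not fixed. Orm1 made up 98.5% of their reads in WT replicate 1 (95% exact binomial interval 98.4 to 98.7%, counting error only) and 87.1% in WT replicate 2 (86.7 to 87.5%). Orm3 made up 7.91% in WT replicate 2 (7.60 to 8.23%) and 0.287% in KO replicate 2 (0.164 to 0.465%). It exceeded Orm2 in WT replicate 2 and KO replicate 1, and was the rarer of the pair in the other 4 libraries. The annotated transcripts of Orm1 and Orm2 are 91.0% identical with a shared run of 141 bases, Orm1 and Orm3 86.1% with 65 bases, and Orm2 and Orm3 88.0% with 75 bases. How reads fitting several paralogs were counted is not stated in those sources, so the split is uncertain. Summed into 1 gene, the 3 had a log2 fold change of -1.29 ± 0.68 (edgeR FDR 0.9997).

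**Figure D2:**
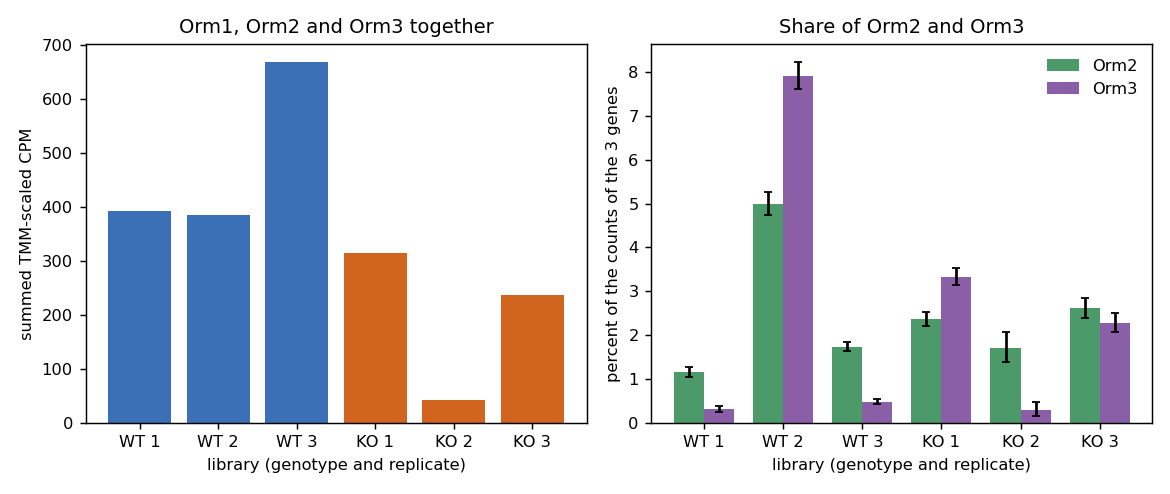
Left, summed TMM-scaled CPM of Orm1, Orm2 and Orm3 in each library, WT in blue and KO in orange. Right, percent of their reads assigned to Orm2 and Orm3, with 95% exact binomial intervals. The sum is lowest in KO replicate 2 (42.0 CPM) and the share of Orm3 is highest in WT replicate 2 (7.91%).

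Haptoglobin binds free haemoglobin and passes it to macrophages through the receptor Cd163. Hp (chromosome 8, 109575130 to 109579172, minus strand) reached 5367, 4122 and 4759 CPM in the WT tumours and 4030, 3493 and 2672 in the KO tumours. All KO values lay under all WT values on this scale, the nearest pair being 4030 and 4122 CPM. Its log2 difference was -0.48 ± 0.28 (95% interval -1.14 to 0.18), with an unadjusted edgeR p of 0.127 and FDR 0.9997. The separation depended on the scaling: on plain library totals KO replicate 1 had 4428 CPM, above WT replicate 2 at 4148, and the groups also overlapped in deposited RPKM and per hepatocyte marker count. With hepatocyte scaling the log2 fold change was -0.29, where the median of all genes was 0.17.

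Hemopexin takes up free haem, and its complex is cleared through Lrp1. Hpx (chromosome 7, 105591613 to 105600116, minus strand) was the steadiest member, at 5094, 5830 and 8260 CPM in WT tumours and 5963, 6415 and 5209 in KO tumours. The highest tumour was 1.62 times the lowest, and the genotypes overlapped. KO minus WT came to -0.13 ± 0.29 (log2; 95% interval -0.83 to 0.57, edgeR FDR 0.9997), and to 0.10 without WT replicate 3 and 0.06 with hepatocyte scaling.

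Ceruloplasmin is a copper-carrying ferroxidase that oxidizes iron for loading onto transferrin. Cp (chromosome 3, 19957054 to 20009145, plus strand) was the one member whose estimate was above 0. Its CPM were 2052, 2050 and 3768 in the WT tumours and 2815, 3550 and 2331 in the KO tumours. All 3 KO tumours lay between the lowest pair and the highest of the WT tumours. KO minus WT was 0.14 ± 0.35 (log2; 95% interval -0.68 to 0.97, edgeR FDR 0.9997), becoming 0.50 when WT replicate 3 was left out, -0.02 when KO replicate 2 was and 0.31 ± 0.35 with the covariate for description numbers.

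Lipocalin 2 binds bacterial siderophores and so withholds iron from bacteria. It is made by stressed hepatocytes and epithelia and stored in neutrophil granules. Lcn2 (chromosome 2, 32384633 to 32388252, minus strand) stood at 78.4, 80.2 and 660 CPM in the WT tumours and at 503, 70.3 and 188 in the KO tumours. It was high in 1 tumour of each genotype, WT replicate 3 and KO replicate 1, the 2 libraries that stood apart over all genes. The edgeR estimate was -0.10 ± 1.03 (log2; 95% interval -2.57 to 2.36, FDR 0.9997). Leaving out WT replicate 3 turned it to 1.68, leaving out KO replicate 1 gave -1.06, and leaving out both gave 0.71 ± 0.49.

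Other cells that can make Lcn2 were followed by their markers. The 13 neutrophil markers summed to 54.7 CPM in WT replicate 3, 11.1 and 17.2 in the other WT tumours, and 5.64 to 12.0 in KO. Their sum in KO replicate 1, 12.0, was close to that of WT replicate 1, 11.1, while their Lcn2 was 503 and 78.4. Not all markers followed that sum. All 13 had reads in some library, but Mpo had 0 reads in WT replicate 1 and KO replicate 3. The granule genes Ltf and Ngp were 4.91 and 6.59 CPM in WT replicate 3. They came next in KO replicate 1 (0.561 and 0.855), against 0.0877 and 0.0626 in WT replicate 1. Mpo and Elane had 57 and 21 reads in KO replicate 1, and 0 and 7 in WT replicate 1. S100a9 was 3.14 CPM in KO replicate 1 and 3.09 in WT replicate 1. Of the 12 neutrophil markers tested, 12 were negative (KO minus WT) and 0 passed edgeR's adjustment, with a median of -1.86. The pair of smallest p, Retnlg (1.55, 1.63 and 2.62 CPM in WT, 0.304, 0.324 and 0.290 in KO) and Mmp8 (0.564, 0.476 and 2.35 in WT, 0.219, 0.256 and 0.0965 in KO), had all KO tumours below all WT tumours, as did 3.96% of all genes tested. The 8 bile duct and progenitor markers summed to 538 CPM in WT replicate 3, 493 in KO replicate 1 and 505 in KO replicate 3, against 56.6 to 103 in the others. Most of that sum was osteopontin (Spp1), at 457, 413 and 465 CPM in those 3 tumours, while Epcam was 4.29, 3.28 and 0.205. The part of these cells in the Lcn2 values was not tested.

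**Figure D3:**
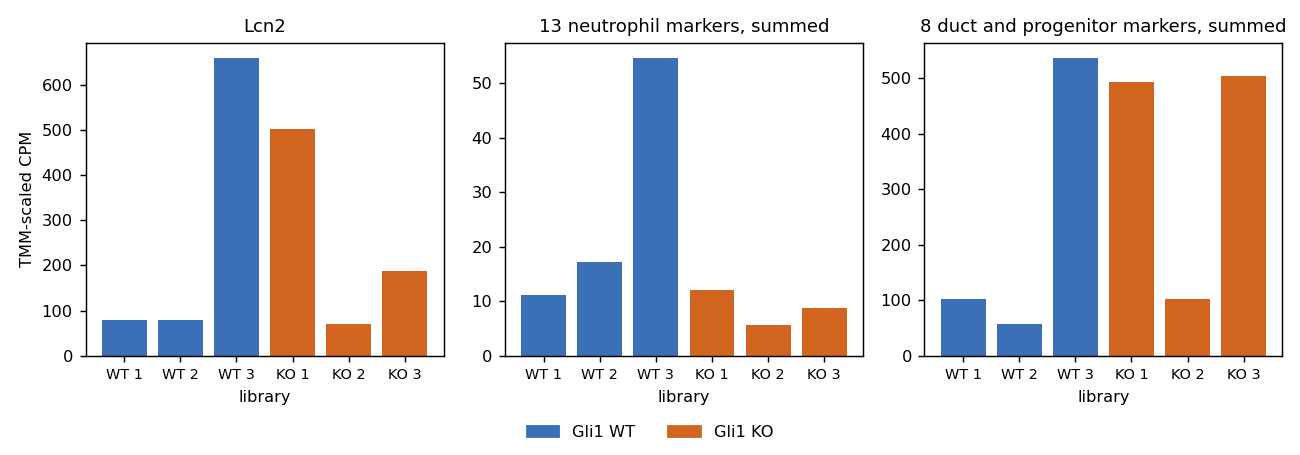
TMM-scaled CPM (linear axes from 0) of Lcn2, of 13 neutrophil markers summed and of 8 bile duct and progenitor markers summed, in each library, WT in blue and KO in orange. Lcn2 is high in WT replicate 3 (660) and KO replicate 1 (503), and the neutrophil sum is high in WT replicate 3 alone (54.7).

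Lbp hands bacterial lipopolysaccharide to Cd14 and the receptor Tlr4. Lbp (chromosome 2, 158306493 to 158332852, plus strand) was counted at 93.6, 201 and 176 CPM in the WT tumours and at 46.8, 98.8 and 50.4 in the KO tumours. KO replicate 2 was just above WT replicate 1, and the other KO tumours were below all WT tumours. The log2 difference of -1.26 ± 0.41 (95% interval -2.23 to -0.29) had the smallest p of the 10 members, 0.0181 unadjusted in edgeR, and did not pass adjustment (FDR 0.9997). DESeq2 gave an unadjusted p of 0.00411 and an adjusted p of 0.362. Leaving out 1 library moved the estimate between -1.68 and -1.04, and the covariate for description numbers gave -0.94 ± 0.18. The unadjusted edgeR p exceeded 0.05 without WT replicate 2 (0.054), KO replicate 1 (0.058) or KO replicate 3 (0.063). It stayed below 0.05 without WT replicate 1 (0.0078), WT replicate 3 (0.046) or KO replicate 2 (0.0053). The partners of Lbp did not pass either: Cd14 was at -0.98 ± 1.02 and Tlr4 at -1.16 ± 0.70 (edgeR FDR 0.9997 for both), each highest in WT replicate 3 (52.0 and 8.97 CPM).

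The inter-alpha inhibitor heavy chains bind hyaluronan and stabilize the matrix around cells. Itih3 is joined to bikunin, the protease inhibitor encoded by Ambp, whereas Itih4 lacks that link and circulates free. Itih3 and Itih4 lie side by side on chromosome 14, at 30908573 to 30923760 (minus strand) and 30886476 to 30901981 (plus strand). In CPM, Itih3 was at 932, 1631 and 1837 in WT tumours and at 1184, 859 and 753 in KO tumours. KO replicate 1 was above WT replicate 1, so the groups overlapped, while the other 2 KO tumours were below all WT tumours. KO minus WT was -0.65 ± 0.34 (log2; 95% interval -1.46 to 0.16), with an unadjusted edgeR p of 0.0973 and FDR 0.9997.

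Values of Itih4 were 1847, 2425 and 3900 CPM in WT tumours and 2565, 1641 and 1775 in KO tumours, with overlap. It followed Itih3 from tumour to tumour, at 0.424 to 0.673 reads of Itih3 for each read of Itih4. Its log2 difference of -0.45 ± 0.36 did not pass (edgeR FDR 0.9997) and came to -0.10 when WT replicate 3 was left out. The other chains of the family did not pass, with Itih1 at -0.48 ± 0.26 and Itih2 at -0.37 ± 0.28. Ambp was at -0.05 ± 0.23, its CPM running from 2099 to 2451 in WT tumours and from 1864 to 2312 in KO tumours. Over the list of 10 family members and hyaluronan partners, 7 could be tested and 0 passed edgeR's adjustment in either direction, with a median of -0.37.

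**Figure D4:**
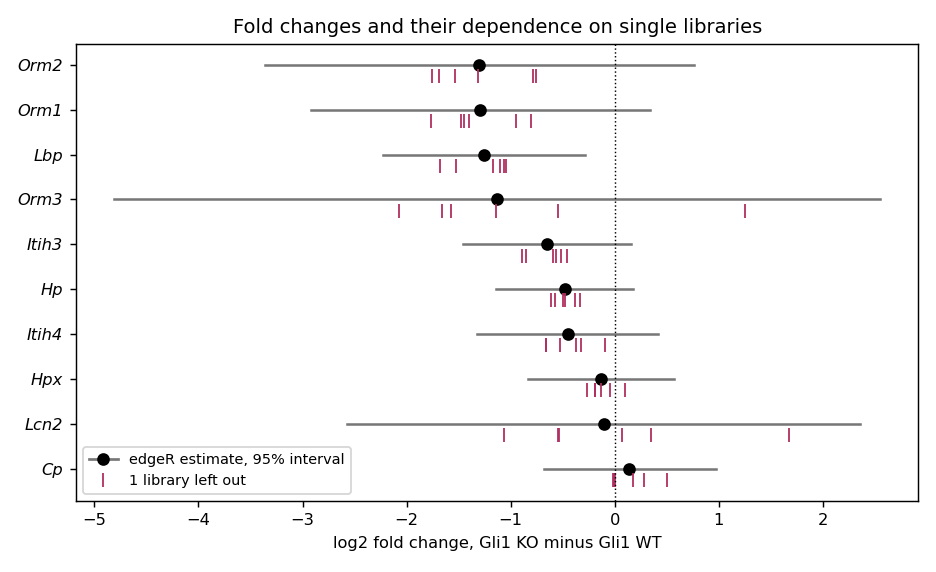
Log2 fold change, Gli1 KO minus Gli1 WT, of the 10 genes from edgeR with its 95% interval (points and lines, n = 3 per group) and the estimates with 1 library left out (ticks). The interval of Lbp alone lies below 0 (-2.23 to -0.29), before any adjustment for the 18359 genes tested, and the ticks of Lcn2, Orm3, Hpx and Cp fall on both sides of 0.

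Tumours differed in the acute-phase genes as individuals. WT replicate 3 was above the 6-library mean of log2 CPM for all 10 members, Orm3 by only 0.07. In TMM-scaled CPM it had the highest value of 6 of them: Orm1, Hpx, Lcn2, Cp, Itih3 and Itih4. WT replicate 2 had the highest Orm2, Orm3 and Lbp, and WT replicate 1 the highest Hp. KO replicate 2 had the lowest value of Orm1, Orm2, Orm3, Lcn2 and Itih4 but the second-highest Cp and Hpx. On other scales some of these places changed. Cp was highest in KO replicate 2 on plain library totals (3548 CPM, against 3499 in WT replicate 3) and in deposited RPKM (329.4 against 322.9), while the other 9 members kept their highest library on both. In deposited RPKM the lowest Lcn2 and Itih4 were in WT replicate 1 (23.0 and 427.3), and KO replicate 2 remained lowest for the 3 orosomucoids. From the lowest to the highest tumour of a genotype, Orm3 ranged 24.5-fold in WT and 86.8-fold in KO, Lcn2 8.41-fold and 7.16-fold, and Orm2 4.22-fold and 10.4-fold. Orm1 ranged 1.95-fold in WT and 7.18-fold in KO. For Hpx, Cp and Hp the range was at most 1.84-fold.

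**Figure D5:**
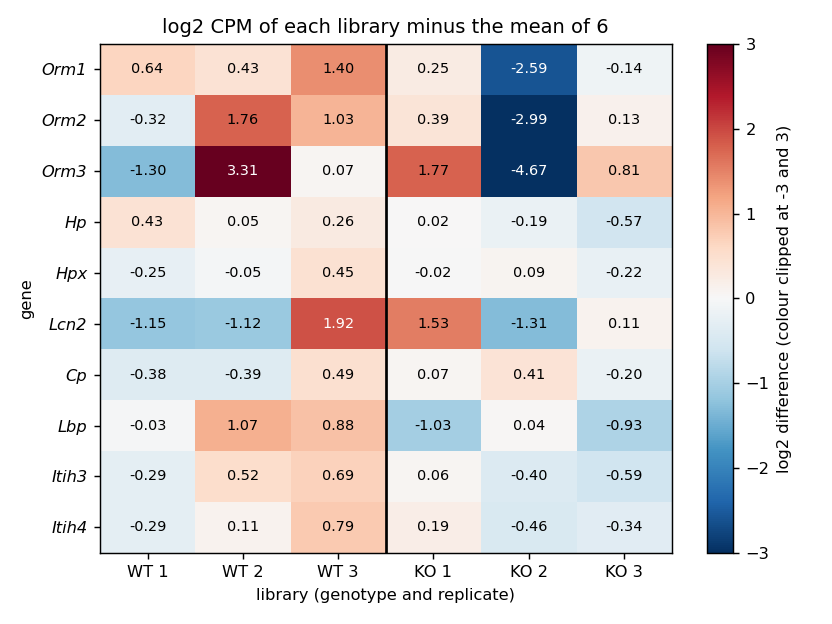
Log2 CPM of each of 10 genes (rows) in each library (columns, WT left and KO right of the line) minus that gene's mean log2 CPM over the 6 libraries. KO replicate 2 holds the lowest values for the orosomucoids (-2.59, -2.99 and -4.67), and all 10 genes are above 0 in WT replicate 3.

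Other genes of the response are counted from fixed lists, and passing was judged in edgeR alone. DESeq2, which called 64 of 28057 genes, was not counted by list. In TMM-scaled CPM, groups that do not overlap were found for 8.11% of all genes, 3.96% with KO below WT and 4.15% with KO above, and among the members they were Orm1 and Hp, both with KO below and both overlapping in deposited RPKM. Of 18 other acute-phase plasma proteins, 0 passed edgeR's adjustment, 16 were negative, 4 had all KO tumours below all WT tumours and the median was -0.52. The pair of smallest p was the pentraxin Apcs (-1.06 ± 0.28) and the metallothionein Mt2 (-1.60 ± 0.47). Of 10 plasma proteins known to decline in the acute phase, albumin among them, 0 passed, 7 were negative, 0 were free of overlap and the median was -0.07. Albumin itself was at -0.29 ± 0.31.

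Among 27 signalling genes of the response, 25 were tested and 0 passed edgeR's adjustment, with 19 negative and a median of -0.25. All KO tumours lay below all WT tumours for 5 of them, against 3.96% of all genes tested. Socs3, the STAT3-induced feedback inhibitor, ran from 40.6 to 63.5 CPM over WT tumours and from 5.91 to 9.29 over KO tumours (-2.77 ± 0.27, edgeR FDR 0.407), and interleukin 1 alpha (Il1a) was at -1.72 ± 0.48. Stat3 itself was at -0.63 ± 0.28 (edgeR FDR 0.9997), its CPM being 154, 185 and 265 in WT tumours and 137, 153 and 100.5 in KO tumours. Interleukin 6 transcripts were scarce, with 17 reads over all 6 libraries. 

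Receptors and partners of the carriers were tested for 12 of 13 genes and 0 passed edgeR's adjustment, with 9 negative, 3 positive and a median of -0.46. The copper transporter Atp7b, which loads ceruloplasmin with copper, was at 39.2, 36.8 and 33.6 CPM in WT tumours and at 56.2, 61.1 and 53.4 in KO tumours, without overlap (0.64 ± 0.14, FDR 0.9997). All KO tumours were above all WT tumours for 4.15% of all genes tested. Cd163, the receptor for haemoglobin bound to haptoglobin, was at 3.75, 26.1 and 14.5 CPM in WT tumours and at 1.76, 3.60 and 5.83 in KO tumours, with overlap (-1.99 ± 0.74, FDR 0.9997).

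Markers of other cell types were summed in the same libraries. T and NK cell markers came to 3.88 to 6.83 CPM over WT tumours and 2.35 to 3.78 over KO tumours, B cell markers to 3.54 to 5.99 and 1.43 to 2.80, and endothelial markers to 288 to 348 and 197 to 250, each without overlap on the TMM scale. On plain library totals the T and NK cell sums overlapped (4.15 CPM in KO replicate 1, 3.91 in WT replicate 2), and the B cell and endothelial sums did not. Of the tested markers, 9 of 10 for T and NK cells (median log2 fold change -1.13), 5 of 5 for B cells (-1.24) and 6 of 8 for endothelium (-0.59) were negative. Macrophage sums (144 to 497 in WT, 128 to 211 in KO) overlapped, with 8 of 9 markers negative and a median of -1.12. Stellate cell and fibroblast sums (136 to 440 and 304 to 722) also overlapped, with 8 of 9 markers positive and a median of 0.85. Of the 15 hepatocyte markers 12 were negative, with a median of -0.14. In none of these lists did a gene pass edgeR's adjustment. The part of these differences in the members' values was not tested.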

How the data were processed

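Per the labels, RNA from 6 liver tumours (3 Gli1 WT, 3 Gli1 KO) was extracted with Trizol and sequenced on an Illumina protocol. The authors deposited raw read counts and RPKM values per gene. The submitters' processing notes name bcl2fastq, TopHat2 2.0.6 and HTSeq with the human builds hg19 and GRCh37, without roles. The deposited identifiers are nevertheless mouse Ensembl identifiers, and 84.2% of the 42462 shared with GENCODE M21 (GRCm38) have the same start, so deposited coordinates were taken as GRCm38. The deposited RPKM values use a library total 12.6 to 19.0% above the summed counts and served only for levels between genes and as a check of overlap. Whether counting used strand is not given there.

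Counts were filtered with filterByExpr, scaled by TMM and tested with edgeR 4.0.16 (robust quasi-likelihood, two-sided, Benjamini-Hochberg) in R 4.3.3. Standard errors are the log2 fold change divided by the square root of F. Alternatives were DESeq2 1.42.0, voom in limma 3.58.1, other scalings and filters, a replicate block, a covariate for description numbers under 2000, and leaving out libraries. Leaving out WT replicate 3 and KO replicate 1 together was chosen after seeing the data. The plain comparisons of genotypes in edgeR, DESeq2 and voom were first run on simulated data, and the other alternatives were not. Members and lists were chosen with earlier results of these data known. All members were named, with the 2 genes of smallest p of each list described. The other named genes, such as Stat3, Spp1, Cd14, Tlr4 and Ambp, were chosen after their values were seen. One gene that the rule on likeness would name is not reported here.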

Additional observations from a re-analysis of the deposited data

How the results depend on the processing

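Numbers of members past FDR 0.05 stayed at 0 under all alternatives run, an FDR of 0.1 included. Over all genes the count was 0 with edgeR and voom and 64 of 28057 genes with DESeq2. The members' median log2 fold change of -0.57 stayed below 0, from -0.96 to -0.45 with 1 library left out, and was -0.39 with hepatocyte scaling, which put the median of all genes at 0.17. The direction of Orm1, Orm2, Hp, Lbp, Itih3 and Itih4 held under every alternative run. Hpx took the opposite sign with hepatocyte scaling (0.06), without WT replicate 3 and KO replicate 1 (0.10), and ran from -0.26 to 0.10 with 1 library left out. Lcn2 was 0.27 with voom, 0.14 with the replicate block, 0.21 with hepatocyte scaling and 0.71 without WT replicate 3 and KO replicate 1, and ran from -1.06 to 1.68 with 1 library left out. Cp ran from -0.02 to 0.50 and Orm3 from -2.07 to 1.25 in the same way, and Orm3 was 0.08 with the replicate block. The cause of these changes was not tested. Deviations of same-numbered libraries correlated at -0.285, 0.18 and -0.343. Such values cannot show whether tumours were paired, since WT replicate 3 and KO replicate 1 stood apart from the rest. Description numbers of WT and KO were 1759 and 1767 for replicate 1, 4204 and 4206 for replicate 2, and 3981 and 1647 for replicate 3. WT replicate 3 correlated best with KO replicate 1 (0.513). With the replicate block 0 genes passed and 502 of 18359 had an unadjusted edgeR p under 0.05, against 665 without it. Among the members 2 did, against 1 without it. They were Lbp (-1.27 ± 0.27, edgeR p 0.0058) and Orm1 (-1.64 ± 0.59, edgeR p 0.0418), both at FDR 0.9998. Fewest reads among the members were 95 of Orm2 and 16 of Orm3, both in KO replicate 2, the library with the most reads in all.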

Other observations

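The 10 genes together held 1.43 to 2.23% of the reads of a WT library and 1.43 to 1.91% of a KO library. Reads of Hp for each read of Hpx were 1.05, 0.707 and 0.576 in WT and 0.676, 0.544 and 0.513 in KO replicates 1, 2 and 3, with overlap between genotypes.

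Among 13873 genes with a mean of at least 1 CPM, those whose log2 CPM was most like the mean of the 10 members over the 6 libraries included Ripk3, Rps16, Pramef8 and Igtp, with likeness (Pearson) of 0.988 to 0.977. That mean is driven by the members of widest spread, the orosomucoids. Genes most like Lcn2 were Ank, Ubash3b, Wdfy1, Hnrnpa1 and Il33 (0.997 to 0.985). Ank had 51.0 CPM in WT replicate 3 and 44.6 in KO replicate 1 against 19.0 to 29.1 elsewhere, and Il33 had 19.5 and 14.7 against 3.17 to 5.27. With 6 libraries and so many genes, high values arise by the search itself, and these are given as a description.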
